A study of Mus musculus with 8 samples.

Results

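The genes described here carry the mouse names Ddx or Dhx, used for DEAD-box and DEAH-box helicases, with core spliceosome members left out. The naming rule took protein-coding genes whose symbol starts with Ddx or Dhx and a number. It uses no measured value, although the genes were chosen with earlier results of these data known. Of 54 annotated symbols of that form, 8 were left out by name (Ddx4, Ddx6, Ddx23, Ddx46, Dhx8, Dhx15, Dhx16 and Dhx38) and 1 is not protein-coding. This left 45 genes, 33 Ddx and 12 Dhx, among 21891 protein-coding genes with an exon in the files. Ddx41, Ddx42 and Dhx35, which have also been linked to splicing, stayed in because the naming rule does not exclude them. The set is a list of names rather than a whole family, and it also holds Ddx11, a DNA helicase.

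RNA was measured in germinal vesicle (GV) oocytes, oocytes held in the first meiotic prophase with an intact nucleus, in 8 libraries. Kiaa1429 cKO oocytes came from Kiaa1429F/F;Zp3-Cre females and control oocytes from Kiaa1429F/+;Zp3-Cre females, with 4 libraries of each genotype. All mice were C57BL/6, aged 20 days in one label and 3 weeks in another. They received 5 IU of the gonadotropin PMSG, and about 20 oocytes of at least 70 µm were pooled per library 48 hours later. Zp3-Cre is driven by the promoter of the zona pellucida gene Zp3, which is active in growing oocytes. Both genotypes carry Cre, and the controls have 1 floxed allele, on which Cre can also act. Kiaa1429, listed under the symbol Virma, encodes the large scaffold subunit of the complex that places N6-methyladenosine (m6A) on mRNA. The labels do not say which part of the gene is floxed. The labels name 4 separate experiments but do not say which animals gave which library, so the p-values speak only of the spread among these libraries.

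DEAD-box and DEAH-box proteins bind RNA and use ATP to open short duplexes, to move along RNA or to strip proteins from it. They act at every step of an RNA's life, from transcription and ribosome assembly in the nucleolus to nuclear export, translation and decay. A fully grown oocyte holds most of the mRNA it will use until the embryo starts its own transcription, and helicases belong to the proteins that handle that store.

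The counts were deposited per exon and summed per gene. Values are CPM (a gene's counts scaled to that library's total on exons, adjusted by its TMM factor), and a fold change is Kiaa1429 cKO over control on the log2 scale, with its standard error (SE), from the quasi-likelihood test of edgeR. A gene was called at a Benjamini-Hochberg adjusted p under 0.05 over all 10673 genes tested. Exon counts per library ran from 4399190 to 5064008 in Kiaa1429 cKO oocytes, against 4247471 to 4790038 in controls. In these bulk libraries a lower share of a transcript cannot be told apart from a higher share of all others, nor fewer cells of a type from less RNA per cell.

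Virma itself stood at 18.6, 24.2, 17.8 and 17.0 CPM in Kiaa1429 cKO libraries, against 61.0, 71.6, 57.1 and 82.0 CPM in control libraries. Every cKO library lay below every control, in the direction of the labels, and the log2 fold change was -1.81 (SE 0.18, adjusted p = 1.02e-06). The 10 oocyte markers examined were all detected in both groups. Their summed level was 19225 to 23328 CPM in cKO libraries, against 37022 to 50047 CPM in controls. Most of that sum came from Bmp15 (mean 7334 CPM in cKO libraries and 18799 CPM in controls) and Gdf9 (8130 and 13582 CPM). Of the 10 markers 6 were called lower, none was higher, and Zp2, Zp3, Ooep and Oosp1 were not called. The 16 cumulus and granulosa markers summed to 400.6 to 690.0 CPM in cKO libraries, against 200.7 to 358.2 CPM in controls. Of the 8 that were tested 3 were higher (Inha, Nr5a2 and Ptgs2), 2 were lower (Fshr and Cyp19a1) and 3 were not called. Of all 16, Nr5a1 alone was at 0 in every library. Foxl2 averaged 0.859 CPM in cKO libraries and 1.59 CPM in controls. Markers of theca, stroma, vessel, immune and blood cells summed to 9.14 to 14.6 CPM in cKO libraries, against 5.75 to 8.94 CPM in controls, and 6 of those 14 markers were at 0. The immune markers Ptprc, Adgre1 and Cd74 were among those at 0. C1qa, a macrophage gene, averaged 7.003 CPM in cKO libraries and 0.177 CPM in controls, with no control above 0.444 CPM. It passed the count filter only through the cKO libraries, so its call as higher carries no support. Without it the sum was 3.32 to 6.74 CPM in cKO libraries, against 5.75 to 8.68 CPM in controls, and the endothelial gene Pecam1 was called lower (1.62 CPM in cKO libraries and 4.42 CPM in controls). The share of reads outside every exon was 5.77% ± 0.531 in cKO libraries and 11.0% ± 0.883 in controls (SD, n = 4 each). An exact two-sided permutation test gave p = 0.0286, the smallest 4 against 4 can give, for each of these 4 measures (adjusted p = 0.04 over 7 measures). The share of reads that met several exon IDs, 79.3% in cKO libraries and 73.8% in controls, gave the same p and adjusted p. What part any of these measures had in the helicase results was not tested.

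Of the 45 helicase genes, 28 had enough counts to be tested, 21 Ddx and 7 Dhx. Among them 9 were higher and 4 lower in Kiaa1429 cKO oocytes, and 15 were not called. The share called higher was 32.1%, beside 27.0% of all genes tested and 30.4% of the 7991 protein-coding genes tested. The share called lower was 14.3%, beside 27.9% of all genes and 23.5% of protein-coding genes. These shares are descriptions, and the helicases were not tested against the background. The median log2 fold change was 0.22 over the 28 helicases, 0.10 over tested protein-coding genes and 0.02 over all genes tested. The cKO and control libraries did not overlap for 15 of the 28 helicases (53.6%), beside 50.1% of all genes. For Dhx37 and Ddx58 fewer than 4 libraries of a group reached the count filter, so their presence among the tested genes owed more to some libraries than to others.

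**Figure D1:**
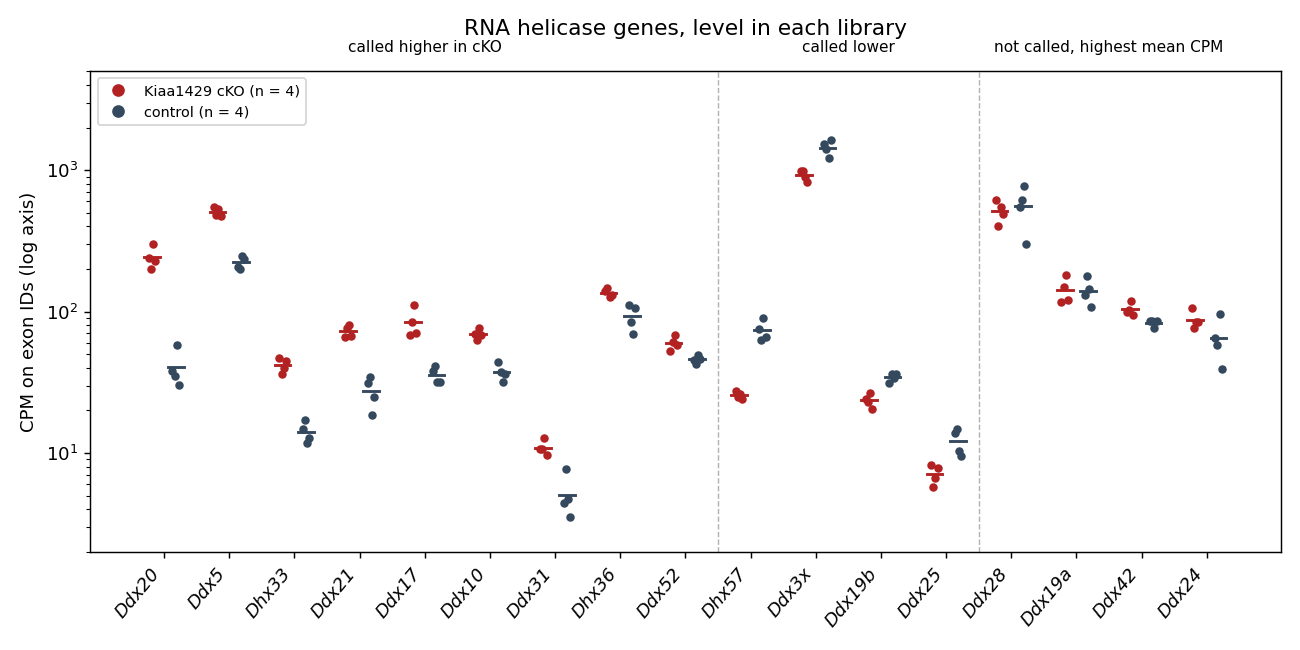
Level of each called RNA helicase gene, and of the 4 uncalled ones with the highest mean, in every library. Points are libraries, bars are group means (n = 4 each), and the y axis is CPM on a log scale. Ddx20 shows the widest gap, with cKO libraries at 200.2 to 299.2 CPM and controls at 30.0 to 58.4 CPM, and Ddx28 and Ddx19a overlap between the groups.

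Because m6A is most often found within a GGACT-like sequence and near the stop codon, GGACT sites are shown for 8 called helicases that the results turn on. Each is the site nearest the stop codon that lies with its flanks inside 1 exon. No m6A was measured in these libraries. Each sequence is the transcript strand, 5′ to 3′, from GENCODE M21 transcripts on mm10, with GGACT in capitals. Ddx20 (chr3:105678431-105678459, minus strand) has its site 102 bases into the 3′ UTR, Ddx21 (chr10:62582319-62582347, minus) 14 bases, Ddx17 (chr15:79529638-79529666, minus) 357 bases and Ddx19b (chr8:111008093-111008121, minus) 140 bases into it. The sites of Ddx5 (chr11:106781988-106782016, minus), Ddx3x (chrX:13290446-13290474, plus), Dhx57 (chr17:80248326-80248354, minus) and Dhx33 (chr11:70999787-70999815, minus) lie in coding sequence, 150, 475, 622 and 1524 bases before the stop. Dhx33 also has a site 392 bases from the stop, which crosses an exon junction and is not shown.
Ddx20: aggaacttgagaGGACTtgaggctttcta
Ddx21: agaggccagaagGGACTgttcccactgtg
Ddx17: gtagggaaggagGGACTgctctgcaggaa
Ddx5: gtaatccaacagGGACTtaccagaacggt
Dhx33: aggcccatgagcGGACTattcacacagat
Ddx19b: ggaattacgtttGGACTtgacaaatttgt
Ddx3x: gtagcagcaagaGGACTggatatttcaaa
Dhx57: tttgtgaaagaaGGACTccgagcaaaaga

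GGACT, searched on the transcript strand of the transcript with the longest coding sequence, occurred in all 28 tested helicases, beside 7301 of 7990 tested protein-coding genes (91.4%). A site within 200 bases of the stop codon was found in 15 of the 28 (53.6%), beside 3038 of all (38.0%). It was present in 4 of the 9 higher genes, 1 of the 4 lower genes and 10 of the 15 uncalled genes. The 4 higher genes were Ddx20, Ddx21, Ddx5 and Dhx36, whose site at 181 bases lies too near an exon junction to be shown with its flanks. The median density was 0.94 sites per kb in the higher genes and 0.50 in the lower genes, beside 1.00 over all tested protein-coding genes. These letters were therefore not confined to the helicases that moved, and a match is neither a methylated site nor a bound one.

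Helicases of transcription, small RNA processing and RNP assembly held the widest change of the family. All 5 were tested, 3 were higher (Ddx20, Ddx5 and Ddx17), and Dhx9 and Ddx1 were not called. Ddx20 (Gemin3, ENSMUSG00000027905.15, chr3:105678270-105687574, minus strand) is the helicase of the SMN complex, which loads Sm proteins onto spliceosomal small nuclear RNAs. It had 238.2, 200.2, 299.2 and 227.1 CPM in cKO libraries, against 37.7, 35.2, 58.4 and 30.0 CPM in controls. The lowest cKO library lay far above the highest control. The means were 241.2 ± 41.9 CPM in cKO oocytes and 40.3 ± 12.5 CPM in controls (SD, n = 4 each), a fold change of 5.99 (log2 2.58, SE 0.20, adjusted p = 1.17e-07). Of its counts 99.8% lay on 1 last exon of 1443 bases (chr3:105678270-105679712), so the value describes that exon.

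Ddx5 (p68, chr11:106780355-106789185, minus) and its paralog Ddx17 (p72, chr15:79527736-79546741, minus) are coregulators of transcription and parts of the Microprocessor that cuts primary microRNAs. Ddx5 had 545.3, 480.9, 532.5 and 474.3 CPM in cKO libraries, against 207.4, 199.2, 245.4 and 237.1 CPM in controls. Each cKO library held about the same level and none came near a control, and the log2 fold change was 1.19 (SE 0.12, adjusted p = 1.38e-06). Ddx17 had 68.5, 84.8, 111.3 and 71.0 CPM in cKO libraries, against 38.1, 41.4, 31.6 and 31.8 CPM in controls, for a log2 change of 1.23 (SE 0.18, adjusted p = 4.41e-05). The groups of Ddx17 were also apart, with more spread among the cKO libraries. Of the counts of Ddx5, 99.3% lay on its last exon, and on the few remaining counts no rise was seen (log2 fold change -0.12, adjusted p = 0.789). Dhx9, which resolves structured RNA and RNA-DNA hybrids, had an estimate of 0.28 on the log2 scale (SE 0.28, adjusted p = 0.418). Ddx1, a part of the tRNA ligase complex, had -0.02 (SE 0.21, adjusted p = 0.940), with an interval of -0.43 to 0.39.

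Helicases of ribosome biogenesis and the nucleolus were the largest class, with 11 of 16 tested. Of these 5 were higher (Dhx33, Ddx21, Ddx31, Ddx10 and Ddx52), none was lower, and 6 were not called. The median log2 fold change of the class was 0.44. Dhx33 (chr11:70984091-71004437, minus), which acts in transcription of ribosomal DNA, had 46.8, 36.3, 40.2 and 44.6 CPM in cKO libraries, against 14.9, 17.0, 11.8 and 12.8 CPM in controls. Every cKO library was more than double every control, and the log2 fold change was 1.57 (SE 0.18, adjusted p = 3.85e-06). Ddx21 (chr10:62580251-62602281, minus), a nucleolar helicase of ribosomal RNA transcription and processing, had 65.6, 76.7, 80.2 and 66.7 CPM in cKO libraries, against 31.3, 34.2, 18.7 and 25.0 CPM in controls. Its groups were apart, and the log2 fold change was 1.40 (SE 0.19, adjusted p = 1.75e-05). With last exons left out it was 0.61 (adjusted p = 0.0630) and with its most counted exon left out 0.56 (adjusted p = 0.0776), so the call rests on the last exon.

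Ddx10 and Ddx31 assist pre-ribosome assembly, in the small and the large subunit pathway by their yeast counterparts. Ddx10 had 69.1, 62.5, 76.3 and 67.8 CPM in cKO libraries, against 43.7, 37.1, 31.8 and 36.0 CPM in controls (log2 fold change 0.89, SE 0.15, adjusted p = 1.65e-04). Ddx31 had 10.6, 10.6, 12.7 and 9.74 CPM in cKO libraries, against 4.44, 7.66, 4.73 and 3.50 CPM in controls (log2 1.10, SE 0.25, adjusted p = 0.00181). Neither gene overlapped between the groups, although Ddx31 rests on 293 counts in all 8 libraries. Ddx52, the counterpart of a yeast small-subunit assembly helicase, had 52.7, 61.0, 68.8 and 57.9 CPM in cKO libraries, against 45.7, 42.4, 48.9 and 46.5 CPM in controls. Its groups were separate by a narrow gap, and the log2 fold change was 0.39 (SE 0.15, adjusted p = 0.0340). This call was lost under 9 other settings and held under 7, with adjusted p between 0.0501 and 0.123 where it was lost.

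Among the uncalled nucleolar helicases, Ddx24 had 106.6, 76.1, 84.3 and 84.3 CPM in cKO libraries, against 65.4, 58.2, 96.0 and 39.5 CPM in controls. Control replicate 3 lay inside the cKO range, and the log2 fold change of 0.44 (SE 0.22) had an adjusted p of 0.102. Without that library Ddx24 (log2 0.69, adjusted p = 0.00648) and Ddx18 (log2 0.42, adjusted p = 0.0271) were also called higher. Dhx37, Ddx18, Ddx56, Ddx55 and Ddx51 had log2 fold changes of 0.56, 0.32, 0.10, 0.01 and -0.25, with adjusted p from 0.0937 to 0.974. Of 25 tested rRNA processing factors other than the helicases, 8 were higher, 4 lower and 13 not called, with a median of 0.33. Imp3, a U3 snoRNP protein, averaged 118.7 ± 9.67 CPM in cKO oocytes and 492.4 ± 82.1 CPM in controls (log2 -2.05, SE 0.14, adjusted p = 4.00e-08). Utp15, of the small-subunit processome, moved the other way (log2 0.87, SE 0.14, adjusted p = 1.00e-04).

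**Figure D2:**
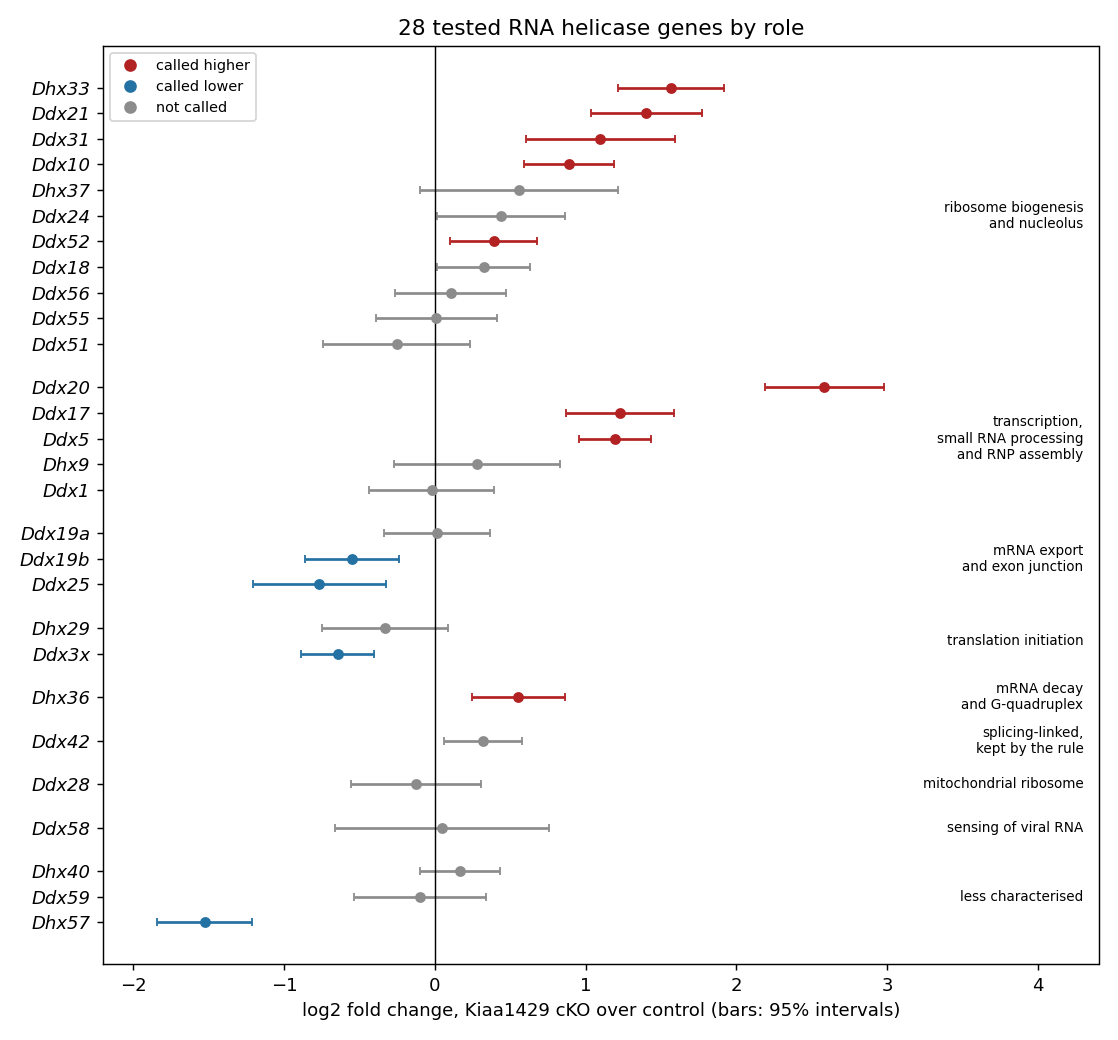
Log2 fold change, Kiaa1429 cKO over control, of the 28 tested RNA helicase genes arranged by role, with bars of 95% intervals (n = 4 per group). The 11 ribosome biogenesis genes lie from -0.25 to 1.57, Ddx20 is the highest point at 2.58 and Dhx57 the lowest at -1.53.

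Helicases of mRNA export and translation included 3 of the 4 that were lower. Ddx3x (chrX:13280970-13294052, plus), which helps ribosomes to scan structured leaders of mRNA, was the most abundant tested helicase of both groups per countable kb, that is, per length of exon that no other exon ID covers. Its level was 254.5 ± 20.6 CPM per countable kb in cKO oocytes and 398.0 ± 46.5 in controls (SD, n = 4 each). It had 978.4, 987.2, 899.0 and 828.5 CPM in cKO libraries, against 1521, 1409, 1225 and 1619 CPM in controls. All cKO libraries were below all controls, and the log2 fold change was -0.65 (SE 0.12, adjusted p = 3.93e-04). Dhx29, which aids initiation on structured leaders, had -0.33 (SE 0.21, adjusted p = 0.203). Among 10 tested translation initiation partners 1 was higher, 3 were lower and 6 were not called (median -0.25). Of these Eif4e3, a cap-binding protein of the eIF4E family, averaged 380.3 ± 7.86 CPM in cKO oocytes and 873.4 ± 146.8 CPM in controls (log2 -1.20, SE 0.13, adjusted p = 2.77e-06). Eif4ebp2, an inhibitor of eIF4E, was higher (log2 1.17, SE 0.20, adjusted p = 1.90e-04).

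Ddx19b (chr8:111003188-111031751, minus) works at the cytoplasmic face of the nuclear pore, where it releases export proteins from mRNA. It had 24.2, 23.0, 26.4 and 20.6 CPM in cKO libraries, against 31.5, 36.4, 33.7 and 36.3 CPM in controls. The groups did not overlap, and the log2 fold change was -0.55 (SE 0.16, adjusted p = 0.00874). Ddx25, known as a gonadotropin-regulated helicase of the testis, had 8.20, 5.74, 6.66 and 7.86 CPM in cKO libraries, against 13.8, 14.8, 10.3 and 9.51 CPM in controls (log2 -0.76, SE 0.23, adjusted p = 0.00964). Its controls were the more spread, and its lowest control lay above its highest cKO library. Ddx19a, the close copy of Ddx19b, had 116.8, 148.7, 181.6 and 120.2 CPM in cKO libraries, against 130.2, 178.8, 145.2 and 107.6 CPM in controls. These groups overlapped over nearly their whole range, and the interval of the log2 fold change was -0.34 to 0.36. Of 10 tested export partners 4 were higher, none was lower and 6 were not called. Nupl2, the nuclear pore partner of the DDX19 helicases, averaged 36.6 ± 4.89 CPM in cKO oocytes and 8.15 ± 2.16 CPM in controls (log2 2.17, SE 0.21, adjusted p = 9.79e-07). Nxt2, of the export receptor dimer, was also higher (log2 1.14, SE 0.15, adjusted p = 2.01e-05).

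The paralogs were set side by side because near-identical copies can share reads. Coding sequences of Ddx5 and Ddx17 were 68.4% identical, and both genes were called higher. Ddx19a and Ddx19b were 91.1% identical in coding sequence, and only Ddx19b was called. Of their counts 99.7% and 95.3% lay on last exons that also hold 3′ UTR, and the identity of those exons was not compared. Some reads may be placed on the wrong copy, which was not tested. The difference between their fold changes was not tested. Ddx21 was 63.3% identical to Ddx50, a nucleolar paralog with 22 counts in cKO and 33 in control libraries. Ddx39 and Ddx39b, closely related mRNA export helicases, were 81.3% identical and had 46 against 10 and 28 against 17 counts in cKO and control libraries. Ddx3x was 84.2% identical to its copy on the Y chromosome, Ddx3y, which had no count in any library of these female cells.

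**Figure D3:**
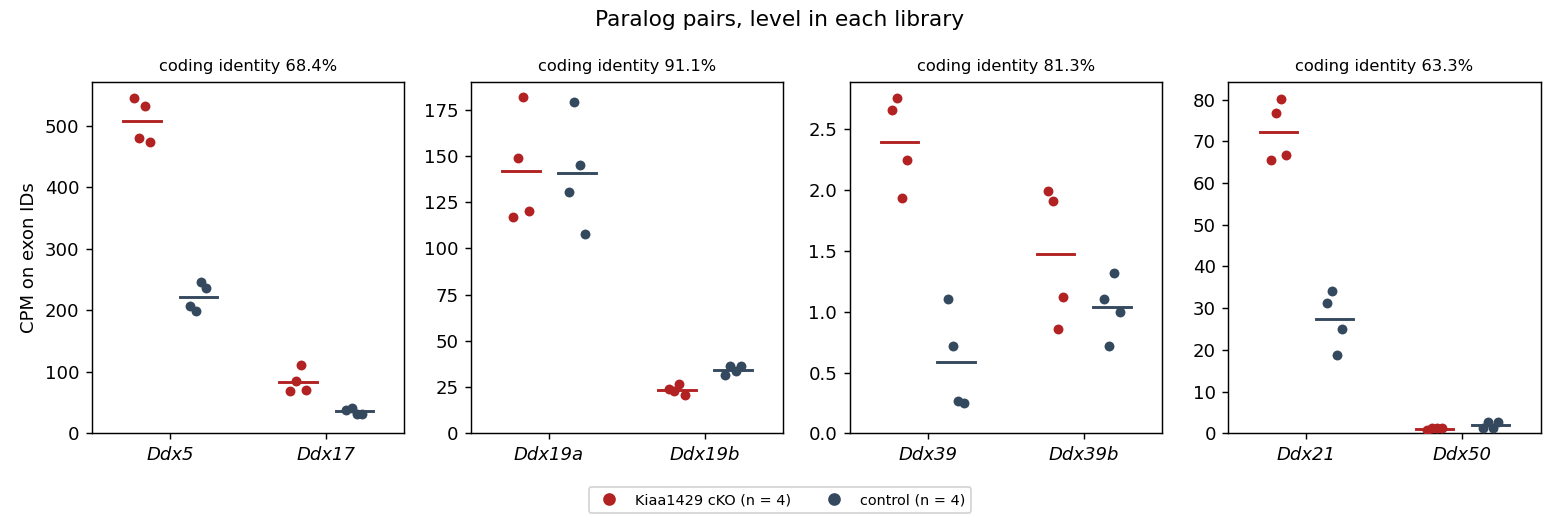
Level of 4 pairs of paralogous helicase genes in every library, in CPM on linear axes that differ between panels (points are libraries, bars are means, n = 4 per group). Ddx5 and Ddx17 are both higher in Kiaa1429 cKO oocytes, whereas Ddx19a overlaps between groups and Ddx19b does not.

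Dhx57 (ENSMUSG00000035051.15, chr17:80238309-80290476, minus), a DEAH-box protein of little-known role, fell the most of the 28. It had 27.3, 24.9, 26.0 and 24.0 CPM in cKO libraries, against 75.6, 63.2, 89.4 and 66.0 CPM in controls. All 4 cKO libraries sat within a few CPM of each other and far below the lowest control (log2 -1.53, SE 0.16, adjusted p = 1.69e-06). Its counts were unusual in place, since 90.6% lay on the internal coding exon 17 of 24, where most helicases had theirs on the last exon. Exon 17 held 428 counts in cKO and 1111 in control libraries, and the next most counted exon held 49 in all. Per countable kb these were 1545 and 4011 counts, against at most 79.6 and 164.2 on any other exon of the gene. The exons before it held 30 counts in cKO and 30 in control libraries, and those after it 31 and 68. Of the 24 exons, 22 were in the files, and the annotated last exon was not among them. With exon 17 left out the gene was still called lower (log2 -0.77, SE 0.28, adjusted p = 0.0286). The exon is printed because nearly the whole signal of the gene comes from it. It spans 277 bases at chr17:80251232-80251508, minus strand of mm10, and holds no GGACT.
Dhx57 exon 17: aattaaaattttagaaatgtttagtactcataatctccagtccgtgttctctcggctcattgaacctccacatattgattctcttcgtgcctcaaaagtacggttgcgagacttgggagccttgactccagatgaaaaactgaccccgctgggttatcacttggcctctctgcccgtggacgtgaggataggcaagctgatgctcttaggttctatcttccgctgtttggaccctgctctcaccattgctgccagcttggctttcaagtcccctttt

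Dhx36, which unwinds G-quadruplexes in RNA and takes part in mRNA decay, had 139.6, 146.2, 126.8 and 131.1 CPM in cKO libraries, against 111.3, 83.8, 69.2 and 106.1 CPM in controls. The groups were apart and the rise was moderate (log2 0.55, SE 0.16, adjusted p = 0.00773). Ddx28, a helicase of the mitochondrial ribosome encoded by a single exon, had 614.6, 403.7, 544.5 and 487.0 CPM in cKO libraries, against 552.0, 616.4, 766.5 and 300.7 CPM in controls. The controls spanned the whole cKO range, and no difference was called (log2 -0.13, SE 0.22, adjusted p = 0.654). Its exon shares some bases with another gene. Ddx42, which has been linked to the U2 snRNP, had 99.7, 102.8, 118.4 and 94.6 CPM in cKO libraries, against 85.4, 85.5, 76.3 and 85.6 CPM in controls. Its groups were apart, yet the adjusted p of 0.0522 (log2 0.32, SE 0.13) missed the threshold. Ddx58 (RIG-I), a sensor of viral RNA, had 0.05 (SE 0.36, adjusted p = 0.920), and Dhx40 and Ddx59 had 0.17 and -0.10 and were not called.

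Ranked by CPM per countable kb, Ddx3x, Ddx28 and Ddx5 were the 3 highest of the tested helicases in both groups. Ddx3x and Ddx28 differed by less than their spread in cKO oocytes, at 254.5 ± 20.6 and 234.0 ± 40.8 CPM per countable kb. Ddx20 held place 4 in cKO oocytes, at 89.0 ± 15.5, and place 10 in controls, at 14.9 ± 4.60. Dhx57 held place 17 in cKO oocytes and place 7 in controls. Ddx19a, at 72.2 ± 15.4 in cKO and 71.5 ± 15.2 in control oocytes, held places 5 and 4. The lowest were Ddx25 and Ddx58 in cKO oocytes, at 1.03 and 0.997, and Ddx58 and Dhx37 in controls, at 0.973 and 0.810 CPM per countable kb.

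The place of the counts matters for all of these levels. In 26 of the 28 tested helicases the most counted exon was a last exon, with Dhx57 and Ddx24 as the exceptions, and in 21 of them 1 exon held over 90% of the counts. With last exons left out, 10 helicases had enough counts, 3 of them called higher and 2 lower. Ddx10, Dhx57 and Ddx25 kept their calls, Ddx5 and Ddx21 lost theirs, and Ddx18 (log2 0.49, adjusted p = 0.0343) and Ddx24 (log2 0.62, adjusted p = 0.0212) were gained. For 8 helicases at least 2 exons (20 in all) could be tested for a change of usage within the gene. Only Ddx21 was called (gene-level Simes adjusted p = 0.00986), beside 23.0% of all 2847 genes tested. Its internal coding exon of 660 bases (chr10:62598232-62598891) took 14.6%, 14.9%, 14.5% and 8.36% of the counts on its tested exons in cKO libraries, against 27.9%, 23.0%, 27.9% and 31.6% in controls. All 4 cKO shares were below all control shares, a log2 difference in usage of -1.05 (exon adjusted p = 0.00934). The last exon of Ddx21 (chr10:62580251-62582607) rose by 1.69 log2 (SE 0.20, adjusted p = 6.27e-06), while the internal exon had 0.39 (SE 0.27, adjusted p = 0.244). The usage call was lost without cKO replicate 4, whose share was the lowest. In Ddx10 the last, the internal 472-base and the first exon had log2 fold changes of 0.78, 0.82 and 1.46, each called higher (adjusted p = 0.00135, 0.00486 and 3.52e-05), and no usage change was called (adjusted p = 0.449).

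**Figure D4:**
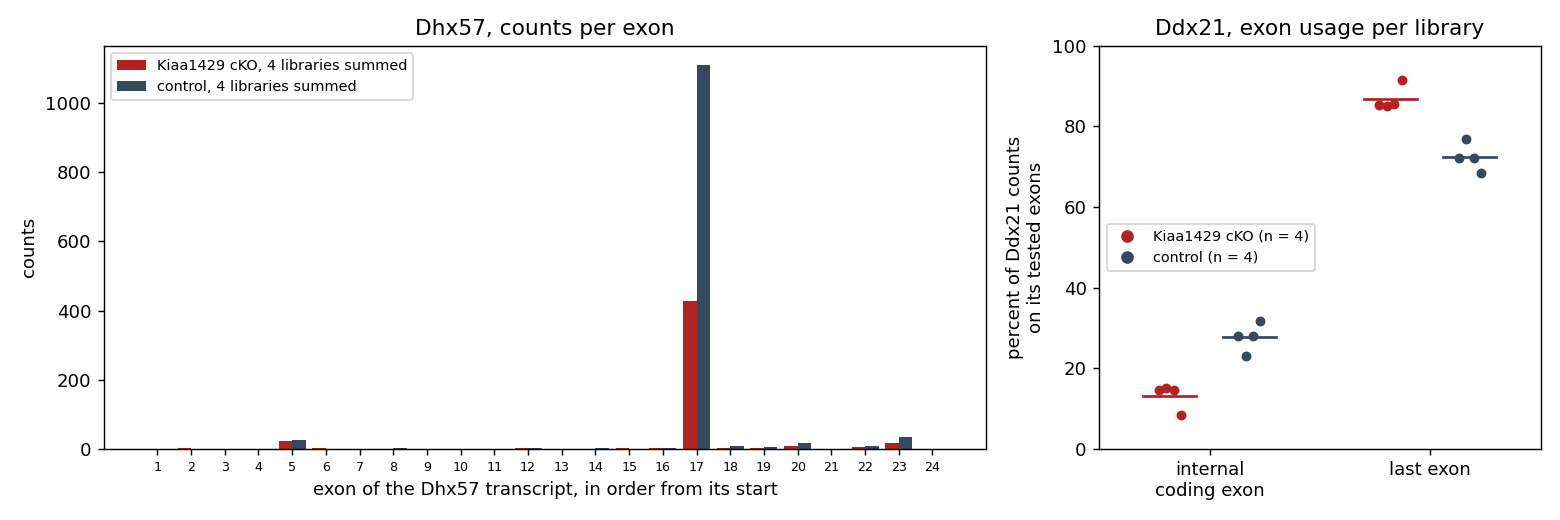
Left, counts on each exon of the Dhx57 transcript, summed over 4 Kiaa1429 cKO and 4 control libraries, on a linear axis from 0. Right, share of Ddx21 counts on its 2 tested exons in each library (points) with group means (bars). Exon 17 of Dhx57 towers over the rest with 428 and 1111 counts, and the internal exon of Ddx21 averages 13.1% in cKO and 27.6% in control libraries.

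The 17 untested helicases had 0 to 66 counts in all 8 libraries together, and a low count here does not show low expression. The last exon of their longest coding transcript had a median of 1 countable base, beside 1149 in the tested helicases, and 7 of the 17 had none. Untested Ddx39, Ddx54, Dhx58 and Ddx43 had 1618, 887, 179 and 136 countable bases there, whereas tested Ddx19b, Ddx24 and Ddx58 had 0. The part of countable length in the low counts was not tested. Ddx49, Dhx58 and Ddx3y had no count in any library, where 3 counts would be 0.592 to 0.706 CPM before TMM scaling. Ratios here compare summed counts scaled by TMM-adjusted depth, with a 95% Clopper-Pearson interval that covers counting error only. Ddx39 had 46 counts in cKO and 10 in control libraries, a ratio of 3.95 (1.97 to 8.77), with 48 of its 56 counts on a first exon of 299 bases. Ddx27, of ribosome biogenesis, had 30 and 9 counts (ratio 2.86, 1.32 to 6.85), while Dhx30, of the mitochondrial ribosome, had 13 and 3. Of the Dhx30 counts 7 were in cKO replicate 1 and all 3 control counts in control replicate 2, and without that cKO library its ratio was 2.24, against 3.72 with all libraries. Ratios under 1 were found for Ddx60, an antiviral helicase, with 14 and 52 counts (ratio 0.231, 0.118 to 0.423), and for Dhx35 with 3 and 24 (ratio 0.107, 0.0207 to 0.353). The counts of Ddx60 lay mostly on a 16-base exon and those of Dhx35 on 1 first exon. Of the 24 control counts of Dhx35, 12 were in control replicate 2, and without that library its ratio was 0.160. Ddx50, Ddx39b, Ddx41, Dhx32, Ddx43, Ddx11, Ddx47, Dhx34 and Ddx54 had 2 to 55 counts each. Among these, ratios were also under 1 for Ddx11 (0.257, 0.0455 to 0.9998), Ddx50 (0.572, 0.318 to 1.01), Ddx47 and Ddx54 (0.858 each). They were over 1 for Ddx39b, Ddx41, Dhx32 and Ddx43, and Dhx34 had no control count.

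Helicases of other families and further partners were counted beside these genes. Of 9 tested helicases outside the Ddx and Dhx names 1 was higher, 3 were lower and 5 were not called (median -0.16). Helz averaged 31.4 ± 7.11 CPM in cKO oocytes and 6.26 ± 2.88 CPM in controls (log2 2.33, SE 0.29, adjusted p = 9.46e-06). Ascc3, of a complex that handles stalled ribosomes, averaged 24.9 ± 2.37 CPM in cKO oocytes and 52.4 ± 14.2 CPM in controls (log2 -1.07, SE 0.20, adjusted p = 3.60e-04). Helz and Ascc3 thus moved in opposite directions. Of 14 tested G-patch proteins and other activators 4 were higher, 3 lower and 7 not called (median 0.18), with Gpkow at 1.64 (adjusted p = 7.97e-06) and Gpatch8 at -1.23 (adjusted p = 3.56e-05). The 2 named activators also moved apart, whereas the next list had no lower member. Of 7 tested partners in the Microprocessor, the SMN complex and the tRNA ligase 4 were higher, none was lower and 3 were not called (median 0.68). The higher ones were the ligase Rtcb at 0.69 (adjusted p = 0.00199), its cofactor Fam98b at 0.92 (adjusted p = 0.00479), Fam98a at 0.68 (adjusted p = 0.00620) and Gemin5 at 0.77 (adjusted p = 0.0265). Drosha of the Microprocessor had -0.31 (adjusted p = 0.258), Gemin6 of the SMN complex -0.28 (adjusted p = 0.0895) and Rtraf 0.02 (adjusted p = 0.911). The median thus does not describe each of the complexes. Of 3 tested viral RNA sensing partners 1 was called, the antiviral zinc finger gene Zc3hav1, which was lower (log2 -1.50, adjusted p = 1.61e-05), and Pcbp2 had 0.40 (adjusted p = 0.214). Of the helicases that the naming rule excludes, 6 were tested. Dhx15 and Ddx6 were higher (log2 0.88 and 1.05), the germ-line helicase Ddx4 (Vasa) was lower (log2 -1.14), and Dhx38, Dhx8 and Ddx46 were not called.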

How the data were processed

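For each of 8 libraries the authors deposited 1 file of read counts by exon ID, as whole numbers. The submitters' processing notes list STAR, HTSeq and the build mm10. Not given in the sources used here are tool versions, options, the strand setting and the annotation release. Per the labels' protocols, RNA was primed with oligo-dT, template-switched, tagmented and sequenced in pairs, which marks no strand. Antisense and overlapping genes are therefore uncertain. Of 496288 exon IDs, 494230 (99.6%) matched GENCODE M21 with versions ignored. The others held 0.252% of counts and were left out, as were 5 summary rows that name no exon. Counts on exon IDs were 14.6% to 15.6% of reads. Reads that met several exon IDs were set apart as ambiguous, 79.3% ± 0.751 of reads in Kiaa1429 cKO and 73.8% ± 1.07 in control libraries (SD, n = 4 each). Of all counts 85.5% lay on last exons.

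Exon counts were summed per gene and kept by filterByExpr (minimum count 10). After TMM scaling, the two-sided quasi-likelihood test was run in edgeR 4.0.16 under R 4.3.3, with no term besides genotype and adjustment over all 10673 genes. The SE is the log2 fold change over the root of the F statistic, and intervals of fold changes are 95% normal intervals from it. Exon usage was tested with diffSpliceDGE. Both steps were tested on simulated data. No 2 libraries of a group were alike within sampling noise (chi-square per degree of freedom 5.28 to 26.2). CPM are counts over the TMM-adjusted library totals. Other settings were RLE and upper-quartile scaling, no filter, minimum count 50, DESeq2 1.42.0, a replicate block, each library left out, protein-coding genes alone, exons shared between genes left out, last exons left out and, added after seeing the data, the most counted exon of each gene left out.

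The genes and lists were chosen with earlier results of these data known. Library values are given for Virma, for all called helicases and for the 4 uncalled ones of highest mean CPM. From each list of other genes the 2 of smallest p are named, and the paralog pairs are shown whatever their values. For the Microprocessor, SMN and tRNA ligase list all 7 tested genes are named.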

Additional observations from a re-analysis of the deposited data

Results flagged for a closer look

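Within groups of 4, a highest or lowest library was marked when its gap to the nearest other library was too large a part of the group's range (Dixon's 95% critical value). Of 72 groups screened 5 were marked, and chance marks about 1 in 20. Ddx42 was at 76.3 CPM in control replicate 3, below the other controls at 85.4 to 85.6 CPM. Counts on exon IDs were 5064008 in Kiaa1429 cKO replicate 4, above 4399190 to 4464497 in the other cKO libraries. They were 4790038 in control replicate 1, above 4247471 to 4284049 in the other controls. Ambiguous reads were 80.4% in cKO replicate 3, above 78.8% to 79.0% in the other cKO libraries. The summed oocyte markers were 50047 CPM in control replicate 3, above 37022 to 38255 CPM in the other controls.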

How the results depend on the processing

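Of the 28 tested helicases, 21 kept their side of the threshold under every one of the 18 other settings that gave a value, and the 9 called ones among them kept their direction too. With last exons left out, 3 helicases were higher (Ddx10, and the gained Ddx18 and Ddx24) and 2 lower of 10 tested, and 973 genes were higher and 995 lower of 4189. With the most counted exon of each gene left out, 2 were higher (Ddx10 and the gained Ddx18, adjusted p = 0.0489) and 2 lower of 11, and 801 and 825 of 3519 genes. Fewer genes were tested in both. Ddx5 turned to -0.12 and -0.16 there (adjusted p = 0.789 and 0.712), Ddx21 lost its call (log2 0.61 and 0.56, adjusted p = 0.0630 and 0.0776), and Dhx36 lost it in the second (0.73, adjusted p = 0.133). The cause was not tested. At minimum count 50, 1844 genes were higher and 1896 lower of 6327, and 0 of 3 helicases had a usage call. Leaving out 1 library gave 8 to 12 helicases higher and 4 to 5 lower, 2602 to 3068 genes higher and 2764 to 3018 lower, and 0 to 1 usage calls. These counts include Ddx39 and Ddx60 where they passed the filter, which each did only through the group where it was high, so their calls carry no support. Ddx42 was called with upper-quartile scaling, minimum count 50, DESeq2 and without cKO replicate 4 (adjusted p 0.0387 to 0.0489). DESeq2 called 10 helicases higher and 4 lower.

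Replicate numbers were not shown to pair the libraries. Same-numbered deviations correlated at 0.11, -0.056, 0.10 and 0.060, and cKO replicates 1 and 4 fitted best with their own number while cKO replicates 2 and 3 did not. Such small correlations cannot exclude that same-numbered libraries shared an experiment. With a replicate block 9 helicases were higher and 4 lower, with Ddx24 gained (adjusted p = 0.0416) and Ddx52 lost (adjusted p = 0.0547). All genes gave 2885 higher and 2908 lower.

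At the counts on exon IDs of these libraries, 3 counts are 0.592 to 0.706 CPM before TMM scaling. Why the untested helicases had few counts was not tested.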
